A study of Rattus norvegicus with 8 samples.

Results

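The mitochondrial respiratory chain subunits are the nuclear-encoded proteins of complexes I to V and cytochrome c. They were chosen by name on the array. A probe was a member when its gene name was that of a complex I subunit (*Nduf* followed by a, b, c, s or v and a number), of succinate dehydrogenase (*Sdha* to *Sdhd*), of complex III (names starting with *Uqcr*, and *Cyc1*), of cytochrome c oxidase (*Cox4* to *Cox8*), of ATP synthase (names starting with *Atp5*) or *Cycs*. This gave 113 probes for 83 genes of the 34912 gene names on the array. Complex I had 35 genes, complex II 4, complex III 9, complex IV 18 and complex V 16, and *Cycs* stood alone. Names are those of the array design. *Ndufa4*, which is now counted with complex IV, and *Atp5s*, a factor B-like protein, were therefore kept under complexes I and V.

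The respiratory chain moves electrons from NADH (complex I) and succinate (complex II) to ubiquinone, then through complex III, cytochrome c and complex IV to oxygen. The protons pumped on the way drive ATP synthase, complex V. Most subunits are encoded in the nucleus and a small set in mitochondrial DNA, and in osteoblasts the chain supplies ATP together with glycolysis.

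RNA was measured in primary osteoblast-like cells from the calvariae of Wistar rats of 3 to 5 days of age. These cells are a mixed culture that was released from bone by enzyme digestion and is not a clone. One group of 4 cultures was not irradiated (0 J/cm2). The other group of 4 cultures received low-level Er:YAG laser light, an infrared laser absorbed by water, at 3.3 J/cm2 for 60 s, and all RNA was collected 6 h later. Irradiation was done with the medium removed, and dishes then received osteoinduction medium with ascorbic acid, β-glycerophosphate and dexamethasone. No genetic change was named for either group, and each array held cRNA made from total RNA and labeled with Cy3. Arrays carried replicate numbers 1 to 4 in each group, and those of the same number were compared as a pair. In RNA from whole cultures, fewer cells of a type and less RNA per cell cannot be told apart.

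The 8 arrays carried 45598 rat probes, and their median processed signals lay between 56.2 and 84.8, with 26543 to 30490 probes well above background and 0 saturated spots. The precision is limited by the 4 arrays of each group. All arrays were on 1 slide, with non-irradiated arrays in columns 1 and 3 and irradiated arrays in columns 2 and 4, so that slide position and irradiation cannot be told apart. Osteoblast markers were present, with 10 of 10 genes tested and *Col1a1* between 17.91 and 18.29 on the log2 scale on all arrays. Their levels were uneven. *Sp7* read between 4.71 and 5.55 and *Ibsp* between 4.47 and 6.52, where the median of all probes tested was 7.58. Of the other cell types, 5 of 5 chondrocyte, 5 of 5 endothelium, 3 of 6 macrophage, 9 of 12 skeletal muscle and 2 of 5 cardiac muscle markers were bright enough to be tested, and 0 of 5 adipocyte markers. The arrays of non-irradiated replicate 1 and irradiated replicate 2 stood apart in signals that depend on where a probe lies on its transcript. The count of calls and the differences of *Cox6b2* and *Atp5c1* are also given below without both pairs of replicates 1 and 2. No result is given without these arrays alone.

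Irradiation left the respiratory chain mRNAs close to their paired controls. Of the 113 probes, 109 probes of 80 genes were bright enough to be tested, and 46 were higher and 63 lower in irradiated cells. The median log2 fold change was -0.01 over these probes, and it was -0.00 over all 26399 probes tested. With limma, 1 of the 109 probes (0.917%) passed an unadjusted p of 0.05, against 2.54% of all probes tested. That probe was *Cox6b2*, an isoform gene of complex IV known from testis. None of the 109 passed an unadjusted p of 0.01 or an adjusted p of 0.1, where 106 and 0 of all probes tested did, and the smallest adjusted p among the members was 1.00. In 7 probes (6.42%) all 4 pairs moved in the same direction, while 7.52% of all probes tested did so. The 3 genes without a testable probe were *Ndufs4*, *Cox7b2* and *Cox8c*, and 1 of the 2 *Ndufa10* probes was also not well above background on any array.

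The intervals of the members were narrow. For 101 of 109 probes (92.7%) the 95% interval of the fold change lay within 1.5-fold in either direction, and for 107 it lay within 2-fold. Over all probes tested, these intervals held for 68.7% and 95.2%. The median standard error was 0.124 for the members and 0.153 for all probes tested. Members were also bright, with a median log2 signal of 14.4 that exceeded 94.8% of all probes tested. Probes at or above the lower quartile of the members' signal had a median standard error of 0.125 (4341 probes). The 8 probes whose intervals were wider belonged to *Cox6b2*, *Atp5c1*, *Ndufs8*, *Ndufa8*, *Ndufa11*, *Atp5j2*, *Ndufb7* and *Cox7a1*.

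**Figure D1:**
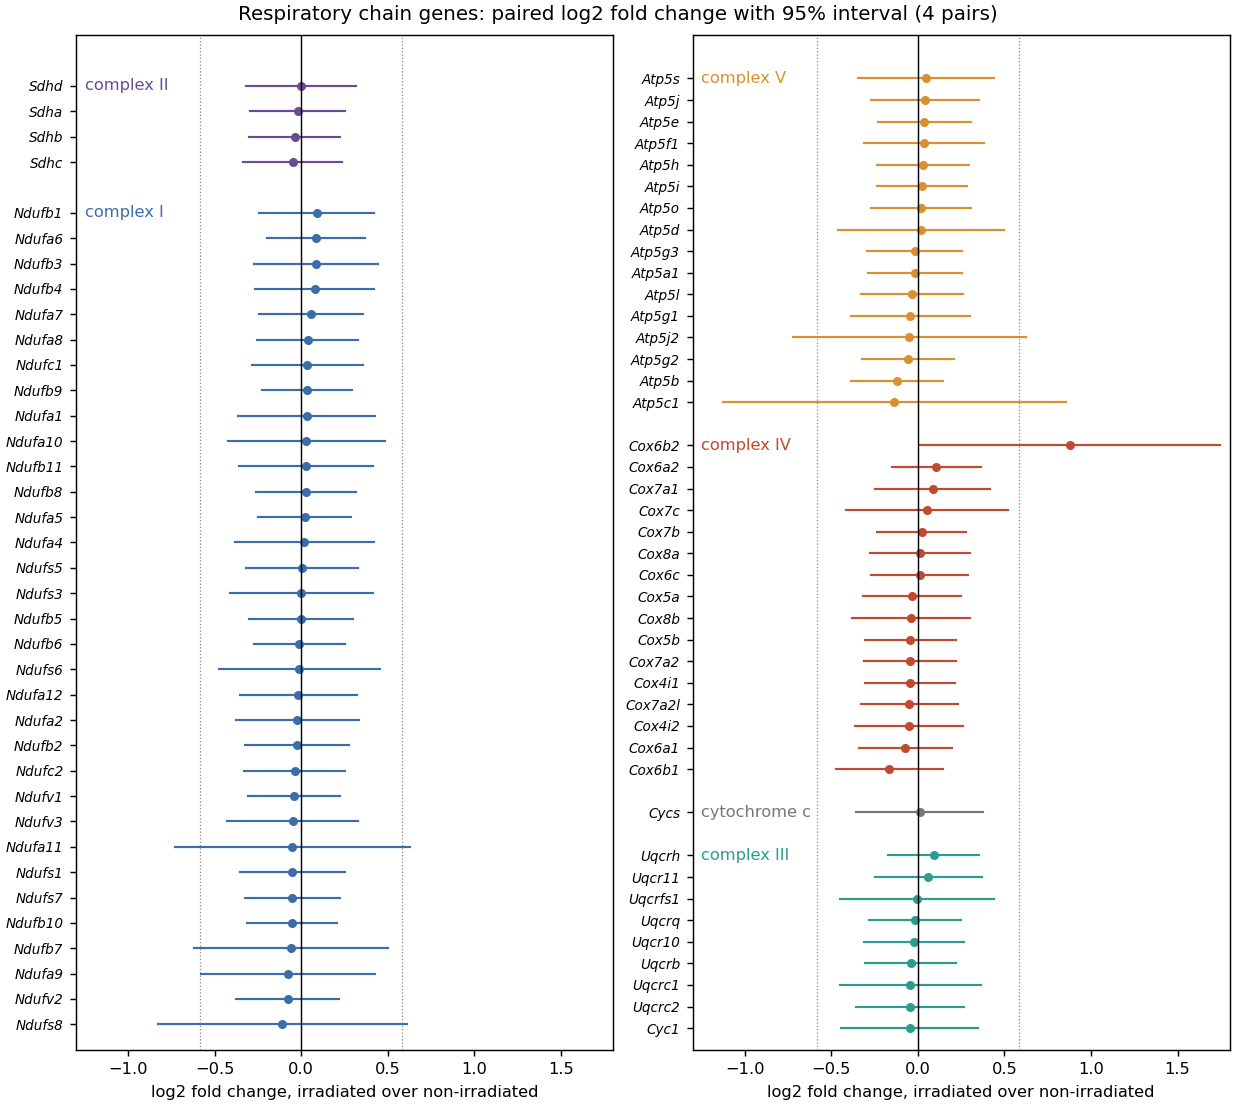
Log2 fold change of 79 of the 80 tested genes (irradiated over non-irradiated, 1 probe per gene, points) with its 95% interval from the paired limma fit over 4 pairs (lines), colored by complex, and dotted lines at 1.5-fold in either direction. All intervals except that of *Cox6b2* include 0, and the widest lines are those of *Atp5c1* and *Cox6b2*.

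Complex I oxidizes NADH and passes the electrons to ubiquinone. Of its 40 tested probes, 18 were higher and 22 lower, with a median log2 fold change of -0.01 and no probe past an unadjusted p of 0.05. The 3 core genes of the NADH-oxidizing arm, *Ndufv1*, *Ndufv2* and *Ndufs1*, had log2 fold changes between -0.08 and -0.04. *Ndufv1*, which carries the flavin, read 14.43, 14.55, 14.56 and 14.54 in non-irradiated replicates 1 to 4 and 14.47, 14.45, 14.57 and 14.41 in the irradiated ones. These values overlapped, and the log2 fold change was -0.04 (SE 0.108). *Ndufv2*, an iron-sulfur protein, differed by -0.08 (SE 0.121), and *Ndufs1*, the largest iron-sulfur subunit, by -0.05 (SE 0.124).

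In the ubiquinone-reducing arm, *Ndufs3* differed by 0.00 (SE 0.169) and *Ndufs7* by -0.05 (SE 0.112). *Ndufs8* read 6.28, 7.69, 7.70 and 8.17 in non-irradiated cells and 6.88, 6.48, 7.94 and 8.12 in irradiated cells. It was low in both arrays that stood apart, and its difference of -0.11 had an interval from -0.83 to 0.61. Among the 27 tested accessory genes, which surround the core, 15 were higher and 12 lower, from -0.08 to 0.09. *Ndufa6* (0.09, SE 0.115) and *Ndufb1* (0.09, SE 0.135) had positive differences, and *Ndufb10* stood at -0.05 (SE 0.107).

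Complex II, succinate dehydrogenase, is the member of the chain that also belongs to the citric acid cycle, and it holds no subunit encoded in mitochondria. All 4 genes had negative differences, and none passed the test. *Sdha*, the flavoprotein, read 12.92, 12.98, 13.08 and 13.02 in non-irradiated and 12.82, 13.13, 13.04 and 12.93 in irradiated cells. The difference was -0.02 (SE 0.112). *Sdhb*, the iron-sulfur subunit, differed by -0.04, *Sdhc* by -0.05 and *Sdhd* by -0.00, where the last 2 anchor the enzyme in the membrane. The largest deviation from 0 at either end of their 95% intervals was -0.34. Citric acid cycle and pyruvate dehydrogenase genes, a list of 19 genes of which 16 were tested, gave 7 higher and 9 lower with a median of -0.02, and 0 of them passed an unadjusted p of 0.05.

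Complex III passes electrons from ubiquinol to cytochrome c. Of its 15 probes, 4 were higher and 11 lower, with a median of -0.02. *Uqcrfs1*, the Rieske iron-sulfur protein, differed by -0.01 (SE 0.182), and *Cyc1*, cytochrome c1, by -0.05 (SE 0.162). *Uqcrh*, the hinge protein, read 14.84, 14.79, 14.75 and 14.81 in non-irradiated and 14.92, 14.97, 14.82 and 14.85 in irradiated cells. It was higher in 4 of 4 pairs, but the groups overlapped and the difference of 0.09 (SE 0.107) did not pass the test. The core proteins *Uqcrc1* and *Uqcrc2* both differed by -0.04. Of the other small subunits, *Uqcr11* differed by 0.06 (SE 0.126) and *Uqcrb* by -0.04 (SE 0.108). The direction of *Uqcrb* turned in its other probe (0.11, SE 0.173) and in the log2 values deposited by the authors (0.06). Where the deposited values lacked a named probe, another probe of the gene stood in, so these turns may not be separate. *Cycs*, the carrier between complexes III and IV, had probes at 0.01 (SE 0.149) and 0.07 (SE 0.119).

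Complex IV reduces oxygen, and several of its subunits come as a common gene and an isoform gene with restricted expression. The 24 tested probes gave 11 higher and 13 lower and a median of -0.01. The 10 common genes lay between -0.16 and 0.05. *Cox4i1*, whose product binds ATP, read 16.85, 16.92, 16.98 and 16.95 in non-irradiated and 16.89, 16.86, 16.93 and 16.85 in irradiated cells, a difference of -0.04 (SE 0.107). *Cox6b1*, the common counterpart of *Cox6b2*, read 9.51, 9.35, 9.38 and 9.46 against 9.16, 9.47, 9.17 and 9.23. It was lower in 3 of 4 pairs, the groups overlapped, and its difference of -0.16 (SE 0.127) did not pass the test.

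*Cox5a* was the member whose groups did not overlap in 1 of its 2 probes. That probe read 14.63, 14.41, 14.43 and 14.49 in non-irradiated and 14.39, 14.38, 14.36 and 14.28 in irradiated cells. All 4 pairs were lower, by 0.14 on average on the log2 scale (log2 fold change -0.14, SE 0.111). The other *Cox5a* probe overlapped and differed by -0.03 (SE 0.116). Of all probes tested, 0.602% had groups that did not overlap, which for the members was 1 of 109. *Cox5b* differed by -0.04, *Cox6a1* by -0.07, *Cox7a2* by -0.04, *Cox7b* by 0.02 and *Cox8a* by 0.01, and *Cox7a2l*, a factor that joins complexes III and IV, by -0.05.

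*Cox6b2* was the exception. Its probe (rn4 chr1:67811691-67811750) read 14.65, 15.52, 12.73 and 13.17 in non-irradiated replicates 1 to 4 and 14.76, 16.87, 14.73 and 13.22 in the irradiated ones. Both groups spread over more than 2 units and overlapped, with means of 14.0 ± 1.3 and 14.9 ± 1.5 (SD, n = 4). Irradiated cells were higher in 4 of 4 pairs, by 2.0 in replicate 3 and 1.35 in replicate 2 but by 0.11 and 0.05 in replicates 1 and 4. The log2 fold change was 0.88 (SE 0.354, 95% interval 0.01 to 1.74), which passed the unadjusted threshold of 0.05 in limma but not the adjusted one. Without replicate 3 it was 0.50 (SE 0.305), without replicate 2 it was 0.72 (SE 0.404), and without both replicates 1 and 2 it was 1.02 (SE 0.501), and it passed in none of these. Without the block the standard error was 0.821, and it did not pass.

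The pattern of *Cox6b2* over the 8 arrays was compared with that of every probe tested. Of the 20 probes most like it (Pearson r over 8 arrays at least 0.965, from the same 8 hybridizations), 7 hold at least 5 C in a row (35.0%), against 2.61% of all probes tested. Most of the 20 hold no run of 5 or more C, among them LOC102547023 (r 0.983) and *Raver1* (r 0.978). The letters CCCCCTCC were in 5 of the 20 and in 0.0833% of all probes tested. The windows below are 30 of the 60 bases of each probe, 5′ to 3′ as written on the array, with a run of C in capitals. They show what the *Cox6b2* probe has in common with 4 of the 7 alike probes that hold such a run. Also shown are 3 other respiratory chain probes that hold one.
Cox6b2: cctgggttgCCCCCCtcctccactttgtcc
Pdxp: gggaccgtcccaCCCCCtccgcctgttgtg
LOC102553558: ctcagcaCCCCCtcccaccgatgtctttaa
Mmp15: CCCCCtccccgcatcgtttagttctgtaaa
Ptms: gccccgaagctgCCCCCtcccctttttgta
Uqcr11: acgattaggcagCCCCCtcccccaccacag
Cox8a: gcttgatggggtCCCCCtttgtaacaataa
Ndufb3: caaaCCCCCatttgaatccttttaacatta

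*Pdxp*, a phosphatase gene, read 16.00, 16.92, 13.80 and 14.28 in non-irradiated and 15.84, 17.51, 16.01 and 14.36 in irradiated cells. *Mmp15*, a membrane-bound metalloproteinase gene, read 17.09, 17.78, 14.89 and 15.27 against 16.75, 18.33, 16.92 and 15.40. Both were low in non-irradiated replicate 3 and high in its irradiated partner, as *Cox6b2* was. They were picked for their likeness to *Cox6b2* over these same arrays, so this shared pattern follows from the choice. Over the 20 probes with CCCCCTCC outside the respiratory chain, which include the 5 above, the median pair differences were -0.05, -0.05, 0.63 and -0.09 for replicates 1 to 4. Over the 111 probes outside it with 6 or more C in a row they were -0.05, 0.15, 0.20 and -0.08. Over 658 with 5 or more G in a row they were -0.13, 0.14, 0.07 and -0.00. In limma, 0% of the 20 probes and 2.7% of the 111 passed an unadjusted p of 0.05, against 2.54% of all probes tested. The runs of C and these letters were examined only after the data were seen. *Uqcr11* has 1 probe that holds the letters and read 14.46 in non-irradiated and 14.80 in irradiated replicate 3, while its other probe, without a run of C, read 11.17 and 11.03 there. *Cox8a* and *Ndufb3*, whose runs end in other letters, differed in replicate 3 by -0.03 and -0.23. The part of the run of C in the *Cox6b2* result was not tested.

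**Figure D2:**
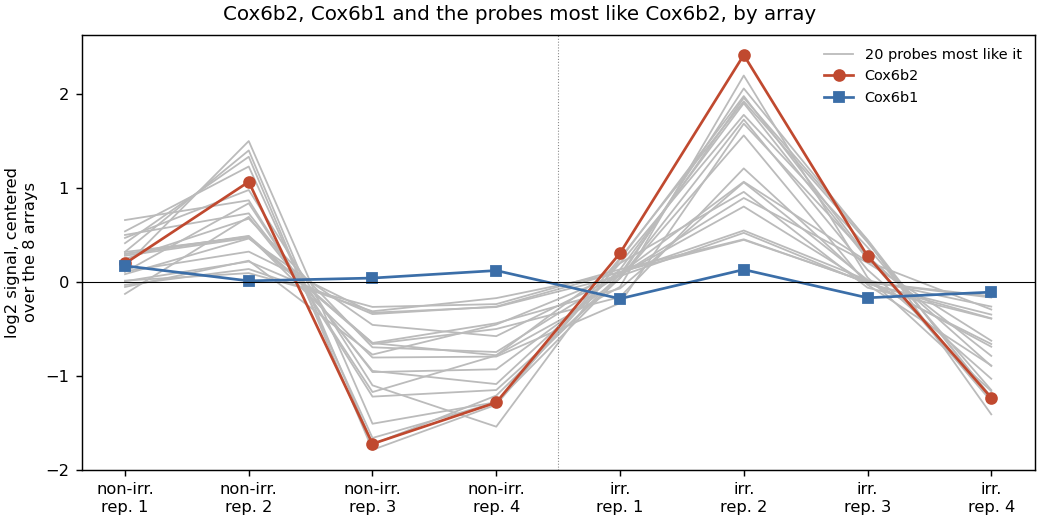
Log2 signal centered over the 8 arrays for *Cox6b2* (red), *Cox6b1* (blue) and the 20 probes whose pattern over the arrays was most like *Cox6b2* (grey). *Cox6b2* and the alike probes peak in irradiated replicate 2 and are low in non-irradiated replicates 3 and 4 and in irradiated replicate 4, while *Cox6b1* stays between 9.16 and 9.51 before centering.

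Of the other isoform genes of complex IV with restricted expression, *Cox8b*, *Cox4i2* and *Cox6a2* differed more between replicate numbers than between groups. *Cox8b*, the heart and skeletal muscle isoform of subunit VIII, read 7.02, 5.58, 5.71 and 5.69 in non-irradiated and 7.01, 5.89, 5.55 and 5.39 in irradiated cells. Both arrays of replicate 1 stood above all others, and the paired difference was -0.04 (SE 0.139). Skeletal muscle markers were also highest in replicate 1 of both groups in 6 of the 9 that were tested (all probes tested: 15.9%). Their signals were summed before the log2 step, so the brightest genes weigh most. This level was 12.63, 11.15, 10.38 and 10.40 in non-irradiated and 12.35, 11.27, 10.61 and 10.43 in irradiated cells. *Myh3*, the embryonic myosin heavy chain, read 11.15 and 10.72 in the arrays of replicate 1 and between 6.44 and 8.95 in the others. *Myh1*, an adult myosin heavy chain, read 9.42 and 9.24 there and between 5.78 and 7.32 in the others. *Myh2* and *Myh4*, also adult forms, were not well above background on any array. *Acta1*, *Ckm* and *Mb* were tested but were not highest in replicate 1 of both groups. *Mb* was lowest in replicate 1 of both groups, at 9.12 in non-irradiated and 8.77 in irradiated cells. The summed level of the chondrocyte markers moved the other way and was lowest in replicate 1 of both groups. It was 12.11, 16.66, 17.21 and 16.25 in non-irradiated and 11.88, 16.81, 17.31 and 16.22 in irradiated cells. Single markers departed from this, as *Sox9* was lowest in non-irradiated replicate 4 (10.77) and *Matn1* in irradiated replicate 2 (3.97). Osteoblast markers were highest in replicate 1 of both groups in 4 of 10. The same held for 1 of 2 tested cardiac muscle, 1 of 3 macrophage and 1 of 5 endothelium markers. The part of these cell types in the *Cox8b* level was not tested.

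*Cox4i2*, a hypoxia-linked isoform known from lung, read 11.10, 11.64, 12.00 and 11.03 in non-irradiated and 10.85, 11.80, 11.80 and 11.12 in irradiated cells. Replicates 2 and 3 were higher than 1 and 4 in both groups, and the paired difference was -0.05 (SE 0.128). *Cox6a2*, the muscle isoform of subunit VIa, was also higher in replicates 2 and 3 in both of its probes. The brighter one read 12.70, 13.00, 13.08 and 12.65 against 12.75, 13.12, 13.18 and 12.81. It was higher in 4 of 4 pairs by a small amount, 0.11 (SE 0.106). The other *Cox6a2* probe was higher in 3 of 4 pairs and differed by 0.03 (SE 0.110). *Cox7a1*, the muscle isoform of subunit VIIa, had probes at 0.08, 0.01 and -0.26, of which the last had a mean log2 signal of 4.92 in non-irradiated cells and an interval from -0.92 to 0.39. The brightest *Cox7a1* probe had pair differences of -0.19, 0.41, 0.06 and 0.06 in replicates 1 to 4.

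**Figure D3:**
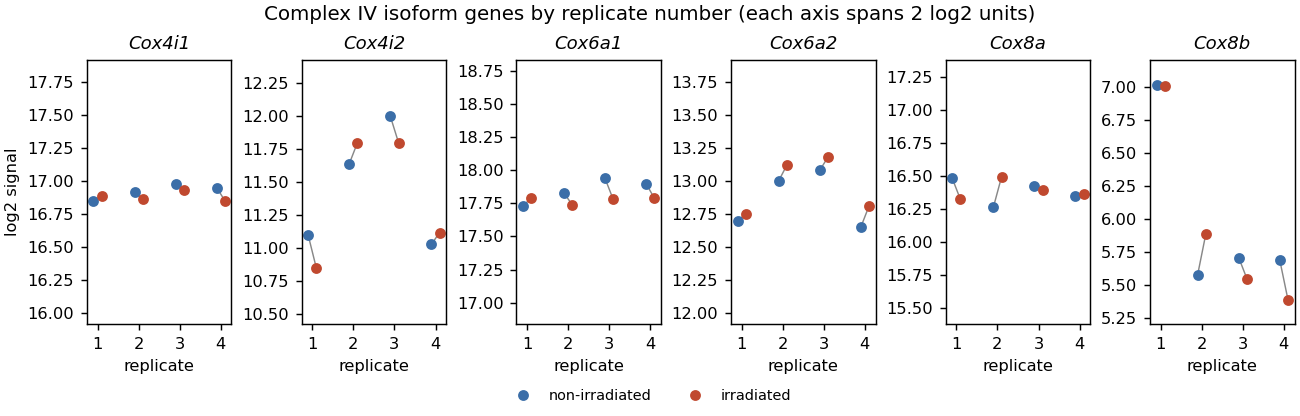
Log2 signal of common (*Cox4i1*, *Cox6a1*, *Cox8a*) and restricted (*Cox4i2*, *Cox6a2*, *Cox8b*) complex IV genes by replicate number, with non-irradiated (blue) and irradiated (red) arrays of a number joined by a line and 2 log2 units on each axis. *Cox8b* stands high in both arrays of replicate 1 and *Cox4i2* in both arrays of replicates 2 and 3, and the lines within a number are short.

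Complex V makes ATP. Its 24 probes gave 11 higher and 13 lower with a median of -0.01. Among the genes of the catalytic F1 head, *Atp5a1* read 17.44, 17.45, 17.58 and 17.48 in non-irradiated and 17.42, 17.57, 17.46 and 17.43 in irradiated cells, a difference of -0.02 (SE 0.111). *Atp5b*, the beta subunit, read 8.72, 9.08, 9.08 and 9.46 against 8.60, 8.88, 9.08 and 9.31. It was lower in 4 of 4 pairs, but the groups overlapped and the difference of -0.12 (SE 0.109) did not pass the test. *Atp5e*, the epsilon subunit, had probes at 0.04 and 0.03, and *Atp5j*, coupling factor 6, differed by 0.04.

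The 3 genes for the same subunit c of the rotor, *Atp5g1*, *Atp5g2* and *Atp5g3*, differed by -0.04, -0.06 and -0.02. *Atp5g1* rests on 3 pairs, because its spots on irradiated replicate 4 were marked as outlying and the fit drops that array. With those spots kept, its difference was -0.13. The 4 probes of *Atp5g2* lay between -0.06 and -0.01. *Atp5h*, subunit d of the stalk, had 1 probe at 0.17 (SE 0.125, 95% interval -0.14 to 0.47) and another at 0.03. The first of these read 14.87 in non-irradiated replicate 3 and between 15.18 and 15.38 in the other 7 arrays.

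By pair, the median difference of the members was -0.02, 0.07, -0.05 and 0.02 in replicates 1 to 4, where that of all probes tested was -0.06, 0.09, -0.01 and 0.00. Complexes II, III and IV were negative in replicate 1 (-0.14, -0.09 and -0.09) and positive in replicate 2 (0.15, 0.11 and 0.14). Complexes I and V had the opposite signs there, at 0.02 and 0.03 in replicate 1 and -0.05 and -0.04 in replicate 2. No complex had the same sign in all 4 pairs.

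**Figure D4:**
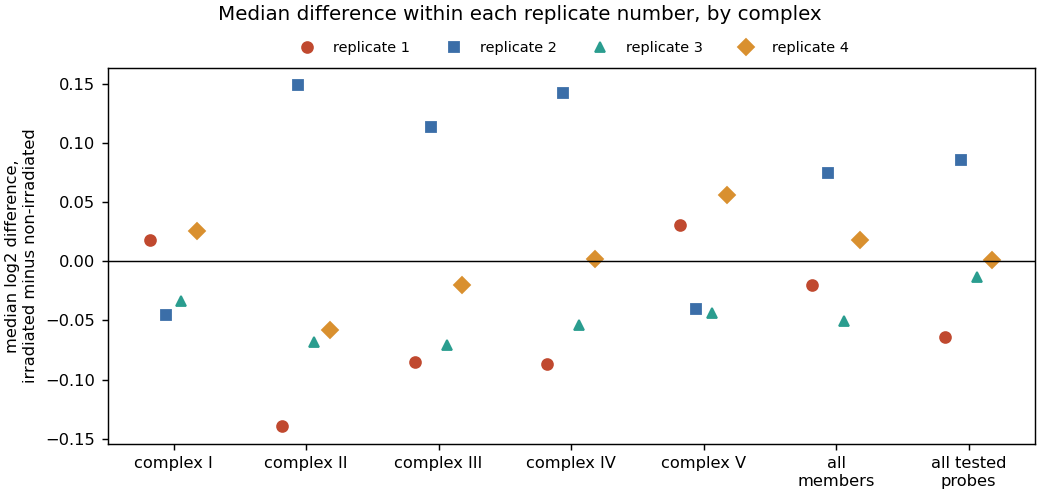
Median log2 difference (irradiated minus non-irradiated) within each replicate number, for the tested probes of complexes I to V, of all members and of all 26399 probes tested. Replicates 1 and 2 lie on opposite sides of 0 in every complex, and complexes I and V are reversed against II, III and IV.

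Of the 8 probes with wide intervals, those of *Atp5c1*, *Ndufs8*, *Ndufa8*, *Ndufa11*, *Atp5j2* and *Ndufb7* were low in the same 2 arrays. *Atp5c1*, the gamma subunit that rotates in the head of ATP synthase, read 10.38, 11.94, 11.89 and 11.94 in non-irradiated and 11.39, 10.29, 11.81 and 12.11 in irradiated cells. Non-irradiated replicate 1 and irradiated replicate 2 were the lowest, and the pair differences were 1.01 and -1.65 in replicates 1 and 2 but -0.08 and 0.17 in replicates 3 and 4. The paired difference was -0.14 with an interval from -1.13 to 0.85. *Ndufa8* had 1 probe with 8.85, 10.32, 10.34 and 10.49 against 9.72, 9.02, 10.31 and 10.62, while its other probe lay between 14.89 and 15.17 on all arrays. Over the members, 15 of 109 probes (13.8%) were lower on these 2 arrays than on the other 6 by more than 0.5, and 10 (9.17%) were higher. Over all probes tested these shares were 15.8% and 15.7%.

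The position of a probe on its transcript moved with this pattern. For 7 member genes, 2 or more tested probes lie at least 100 bases apart on 1 transcript. The upstream minus the downstream probe, centered over the arrays, was below 0 for 7 of 7 genes in non-irradiated replicate 1 and for 6 of 7 in irradiated replicate 2, where *Uqcrq* was the exception. It was also below 0 for 6 of 7 genes in irradiated replicate 1, where *Uqcrb* was the exception. The medians over the 7 genes were -0.40, 0.07, 0.08 and 0.18 in non-irradiated and -0.07, -0.17, 0.13 and 0.16 in irradiated replicates 1 to 4. *Ndufb4*, an accessory subunit of complex I, showed it within 1 transcript. Its probe at base 171 read 14.14, 14.31, 14.46 and 14.43 in non-irradiated and 14.02 in irradiated replicate 2, the lowest of its 8 values. Its probe at base 374 read 16.78, 16.46, 16.32 and 16.44, and 16.90 in irradiated replicate 2, the highest of its 8 values.

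Over 2010 genes with probes at least 300 bases apart, the medians were -0.15, 0.07, 0.02 and 0.14 in non-irradiated and -0.06, -0.09, 0.05 and 0.07 in irradiated replicates 1 to 4. RNA quality was not given in the sources used here, and its part in this pattern was not tested. Without replicates 1 and 2, 0 of 109 members passed an unadjusted p of 0.05, against 6.36% of all probes tested, and *Atp5c1* differed by 0.05. With the upstream minus downstream difference of each array as a covariate beside the block, 0 members and 4.59% of all probes tested passed, and *Cox6b2* stood at 0.82 (SE 0.395). Of the 25 member genes with several tested probes, 12 had probes of opposite sign. The largest gaps were in *Cox7a1* (0.35), *Ndufa7* (0.18) and *Ndufb3* (0.17). In each, the lower difference came from a much dimmer probe. Its mean log2 signal was 4.79, 7.80 and 5.16, against 9.39, 16.06 and 15.87 for the brightest probe. The *Ndufb3* probes also lie on opposite strands in the array design.

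**Figure D5:**
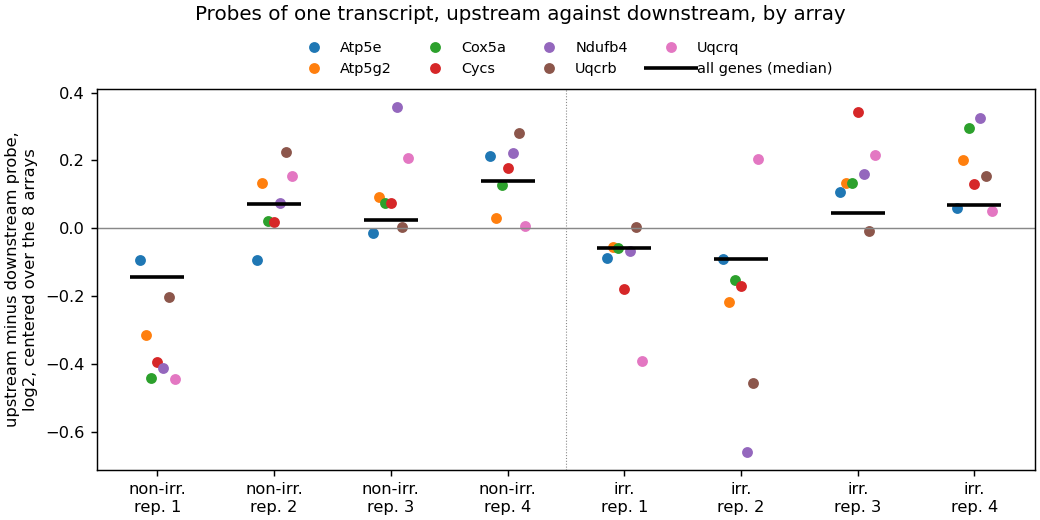
Upstream minus downstream probe of the same transcript (log2, centered over the 8 arrays) for 7 respiratory chain genes (points) and the median over 2010 genes with probes at least 300 bases apart (black lines). Non-irradiated replicate 1 and irradiated replicate 2 lie below 0 for all or 6 of the 7 genes, and irradiated replicate 1 also lies below 0 for 6 of them.

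The lists of genes around the chain gave no call. All 13 subunits encoded in mitochondrial DNA were tested, with 4 higher and 9 lower, and their differences ran from -0.09 for *ATP8* to 0.06 for *ATP6*. *COX3*, a catalytic core subunit of complex IV, was low on the same 2 arrays, with 13.72, 14.89, 14.64 and 14.92 against 14.66, 13.37, 14.71 and 15.08. Of 41 assembly factors 39 were tested, 20 higher and 19 lower, between -0.23 and 0.23. Of 20 regulators of mitochondrial biogenesis 16 were tested, with 6 higher and 10 lower. *Tfam*, which packages mitochondrial DNA, differed by -0.00 (SE 0.109) and *Nrf1*, a factor that binds promoters of respiratory genes, by 0.04 (SE 0.225). The coactivator gene *Ppargc1a* was not well above background on 7 of 8 arrays. Of 12 carriers and uncoupling proteins 7 were tested, from -0.06 for *Vdac2* to 0.01 for *Slc25a3*. None of these passed an unadjusted p of 0.05 in limma, where 2.54% of all probes tested did. The mitochondrial ribosomal proteins, another group of nuclear-encoded mitochondrial proteins, had 1 of 91 probes past that level (1.1%) with a median of -0.02.

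Promoters of the members are shown because nuclear respiratory factor 1 (NRF1) is known to bind such genes. All 83 names were matched to RefSeq (GRCr8), and 73 had a promoter of 300 bases around the start, most of it before it. The core GCGCATGC was found on either strand in 10 of 73 (13.7%) and in 2.47% of all 33469 promoters. Those 33469 were not filtered to protein-coding genes, which the members are, so the shares here and below compare unlike sets. The YY1 letters AAGATGGC were in 19.2% and 3.17%, the ERR letters AAGGTCA in 15.1% and 4.61%, the ETS letters CCGGAAGT in 9.59% and 3.81%, the SP1 letters GGGCGG in 42.5% and 33.1%, and the CRE letters TGACGTCA in 5.48% and 1.83%. Below, 4 members of different complexes are shown with the NRF1 core in capitals, 5′ to 3′ on the strand of the gene.
Ndufa6 (chr7:115750403-115750432, minus strand): tccgcggtagaGCATGCGCatggcagagcc
Sdhb (chr5:158547756-158547785, plus strand): aagcccagtggGCATGCGCcctactggccg
Uqcrc1 (chr8:118468173-118468202, plus strand): tactccaccctGCGCATGCgtagcgcggct
Cycs (chr4:80984906-80984935, minus strand): catgctagcccGCATGCGCgcgcaccttgc
A match is only a run of letters, and these 4 genes differed by 0.09, -0.04, -0.04 and 0.01 on the log2 scale after irradiation.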

How the data were processed

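The authors deposited 1 scanner file per array with spot intensity values, made with Agilent Feature Extraction 11.0.1.1, and a table of log2 values that the authors deposited as processed data. The processed intensity is background subtracted and detrended within the array. Here it was log2-transformed and quantile normalized over rat probes, outlying spots were dropped and spots of a probe averaged. A probe was tested if more than 50% of its spots were well above background on all 4 arrays of a group. Groups were compared with limma 3.58.1 in R 4.3.3 with replicate number as a block, and p-values were Benjamini-Hochberg adjusted over all 26399 probes fitted. The fit was run on simulated data with independent noise for each probe and array. Such data lack the pattern shared by non-irradiated replicate 1 and irradiated replicate 2, so the simulation does not cover it. The pairing follows the study's supplementary t values, which track differences within a number, and the names of the scanner files, which give both arrays of a number the same animal. Deviations from the group means correlated at 0.608, 0.0542, 0.571 and 0.749 within numbers 1 to 4, but irradiated replicate 2 correlated more with non-irradiated replicate 1 (0.439), and non-irradiated replicate 2 more with irradiated replicate 3 (0.303), than either did with its partner. The p-values measure the spread between these 4 pairs of cultures, after limma drew each probe's variance towards a value pooled over all probes tested. Where a probe's own pairs spread little, its standard error mostly reflects the pooled value. The brighter *Cox6a2* probe, for example, had pair differences of 0.05, 0.12, 0.10 and 0.16 and a standard error of 0.106.

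For each gene the brightest tested probe was used. Genes were named by role (redox or catalytic core, isoform genes), by the smallest p in each complex and direction, and by the largest disagreement between probes. Lists of markers and related genes were described by counts and medians. The members and lists were chosen with earlier results of these data known. Alternatives covered normalization, background correction, filters, the deposited log2 values, outlying spots, each replicate, the block, the variance prior and averaging over probes. Another 3 were chosen after seeing the data: leaving out replicates 1 and 2, a transcript position covariate, and leaving out probes with 5 or more C in a row. Probe coordinates are those of the array design (rn4), and promoters are from RefSeq (GRCr8). The result of 1 gene is not reported here.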

Additional observations from a re-analysis of the deposited data

Results flagged for a closer look

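In 7 of 89 groups of 4 arrays, the highest or lowest array lay far from the others by Dixon's test at the 95% level, which chance gives in about 1 in 20 groups. Of these, 5 were non-irradiated replicate 1. That array was low for *Atp5c1* (10.38, next 11.89) and *Uqcrfs1* (11.93, next 12.65). It was high for *Cox8b* (7.02, next 5.71), *Cyc1* (15.90, next 15.47) and *Cycs* (15.32, next 14.64). Non-irradiated replicate 4 was low for *Atp5e* (16.17, next 16.64), and irradiated replicate 2 was low for *Cox6a1* (17.74, next 17.78).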

How the results depend on the processing

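The count of 1 respiratory chain probe at an unadjusted p of 0.05 rested on *Cox6b2*. The count was 0 with no filter on dim probes, with no replicate block, with the replicate block as a random effect, and, among the settings chosen after seeing the data, without replicates 1 and 2 and with the transcript position covariate. It was also 0 with probes of 5 or more C in a row left out, which follows from the setting itself, since it removes the *Cox6b2* probe. Leaving out each replicate gave 0 to 1, with 0 without replicate 2 and without replicate 3. The log2 fold change of *Cox6b2*, 0.88 in each of these 3, had a standard error of 0.400 with no filter, 0.553 with the random block and 0.821 with no block. It kept its direction in every alternative that gave it a value, and the cause of the lost calls was not tested. No member passed an adjusted p of 0.1 under any alternative. Over all probes tested, 670 passed an unadjusted p of 0.05, and this count ranged from 246 with no replicate block to 1678 without replicates 1 and 2. The medians over the members and by complex moved by less than the spread between pairs in every alternative.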
